A study of Sus scrofa with 9 samples.

Results

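Axonemal dynein heavy chains are the motor subunits that bend the sperm tail. A list of 10 of their genes (DNAH1, DNAH2, DNAH3, DNAH5, DNAH6, DNAH7, DNAH8, DNAH10, DNAH12 and DNAH17) was looked up by symbol among the 22342 genes of the pig tables. A matching identifier was found for 7 genes, and all 7 passed the filter on low counts. DNAH3, DNAH6 and DNAH8 had no matching identifier and are not analysed here. The members were chosen by name, with no measured value of this series in the rule, though earlier results of these data were known.

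The libraries were made from total RNA of testis cells of the pig, labelled as 3 germ cell stages, in a series on chromatin structure and gene expression. Spermatogonia divide by mitosis, spermatocytes pass through meiosis, and round spermatids are its haploid products, which have yet to elongate. There were 9 libraries, with spermatogonia 1, 2 and 3, spermatocytes 2, 3 and 4, and round spermatids 1, 2 and 3. The labels name no treatment, genotype, breed, age or animal for any stage. Spermatocyte columns are headed for the pachytene stage and spermatogonia columns for the KIT receptor, so these columns were joined to the labels by the meaning of the headings and the shared numbers. Without named animals, p-values measure the spread between libraries, which may be technical.

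Each axonemal heavy chain folds into a motor head that burns ATP, a stalk that grips the neighbouring microtubule doublet, and a tail that holds the arm to its own doublet. Outer arms set beat frequency and power, and inner arms, which come in one form with paired heads and several with a single head, shape the bend. Arms are assembled in the cytoplasm before they enter the tail, and in humans defects in several heavy chain genes cause immotile cilia, short or malformed sperm tails, or both.

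The genes lie apart from each other on 5 chromosomes. By symbol in RefSeq on Sscrofa11.1, DNAH17 (ENSSSCG00000036056) spans chr12:3485166-3590325 and DNAH2 (ENSSSCG00000017963) chr12:52982217-53086744. DNAH1 (ENSSSCG00000028184) spans chr13:34455154-34544147 and DNAH12 (ENSSSCG00000020990) chr13:39148160-39395266. DNAH10 (ENSSSCG00000009765) spans chr14:29095480-29250255, DNAH7 (ENSSSCG00000032814) chr15:99722278-99987348, and DNAH5 (ENSSSCG00000032827) chr16:3114267-3366189. These are whole gene spans of 89 to 265 kb, and the deposited values cover whole genes rather than single exons.

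Library totals ran from 47963279 to 64639201 estimated counts, and round spermatids 2 was the shallowest. Marker genes were checked by their summed level in CPM, the gene's counts scaled by the library total and its TMM factor. The 8 spermatocyte markers summed to 2700 to 3413 CPM in spermatocytes, against 782 to 817 in spermatogonia and 222 to 291 in round spermatids. The 8 spermatid markers reached 4804 to 7136 CPM in round spermatids and still 1866 to 1909 in spermatogonia, with 475 to 1520.5 in spermatocytes. PRM1, PRM2, TNP1 and TNP2 were highest in round spermatids, but ACRV1, SPACA1, SPACA3 and SPACA4 were highest in spermatogonia. These last averaged 119, 81.8, 34.1 and 101 CPM in spermatogonia against 52.7, 40.8, 4.16 and 8.73 in round spermatids. Of the spermatocyte markers SPO11 and DMC1 were also highest in spermatogonia, and the rest in spermatocytes. SPO11 averaged 6.97, 2.62 and 4.32 CPM over the stages in order, and DMC1 39.1, 25.7 and 9.14. The 7 spermatogonial markers found of 8 summed to 93.8 to 97.7 CPM in spermatogonia, 34.8 to 46.1 in spermatocytes and 78.4 to 84.0 in round spermatids. In the libraries labelled spermatogonia the meiotic and haploid markers thus summed above their own. KIT, the receptor in the headings of those columns, had means of 6.36, 7.47 and 24.6 CPM over the 3 stages in order. GFRA1, a marker of undifferentiated spermatogonia, averaged 0.860, 0.326 and 5.35 CPM, and UCHL1 26.1, 1.72 and 1.90 CPM. UCHL1, DMRT1, STRA8 and NANOS3 had their highest mean in spermatogonia. The other spermatogonial markers found, KIT, GFRA1 and ZBTB16, had theirs in round spermatids. Leydig cell markers summed to 297 to 316 CPM in spermatogonia and 25.6 to 33.8 in round spermatids, with all 6 below 1 CPM in spermatocytes. Of these HSD17B3 was highest in round spermatids, with a mean of 11.4 CPM against 2.67 in spermatogonia. The 5 peritubular myoid markers reached 4052 to 4927 CPM in round spermatids against 8.03 to 19.4 in the other stages. The part of these other cells in the results was not tested. The 4 multiciliated epithelium markers found of 6 summed to 79.6 to 79.9 CPM in spermatogonia, 86.9 to 156 in spermatocytes and 56.4 to 81.7 in round spermatids. DEUP1 gave most of this (72.7, 111 and 68.8 CPM on average), CCNO averaged 6.46 CPM in spermatogonia and under 1 CPM later, and MCIDAS stayed at or below 0.072 CPM in every library.

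In spermatogonia and spermatocytes 6 of the 7 heavy chains were abundant, and all 6 were far lower in round spermatids. DNAH5 was rare at every stage. From spermatocytes to round spermatids 6 genes fell and 0 rose, where 36.4% of the 16802 tested genes fell and 42.7% rose. Between spermatogonia and round spermatids all 7 fell, where 39.7% of tested genes fell. Between spermatogonia and spermatocytes DNAH10 and DNAH12 rose and DNAH5 fell, where 29.3% of tested genes rose and 44% fell. The other 4 were not called there. A call is an adjusted p below 0.05 in edgeR's quasi-likelihood test over all tested genes, and "fell" and "rose" are used for called genes. In bulk libraries fewer cells that hold a transcript and less of it per cell cannot be told apart.

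**Figure D1:**
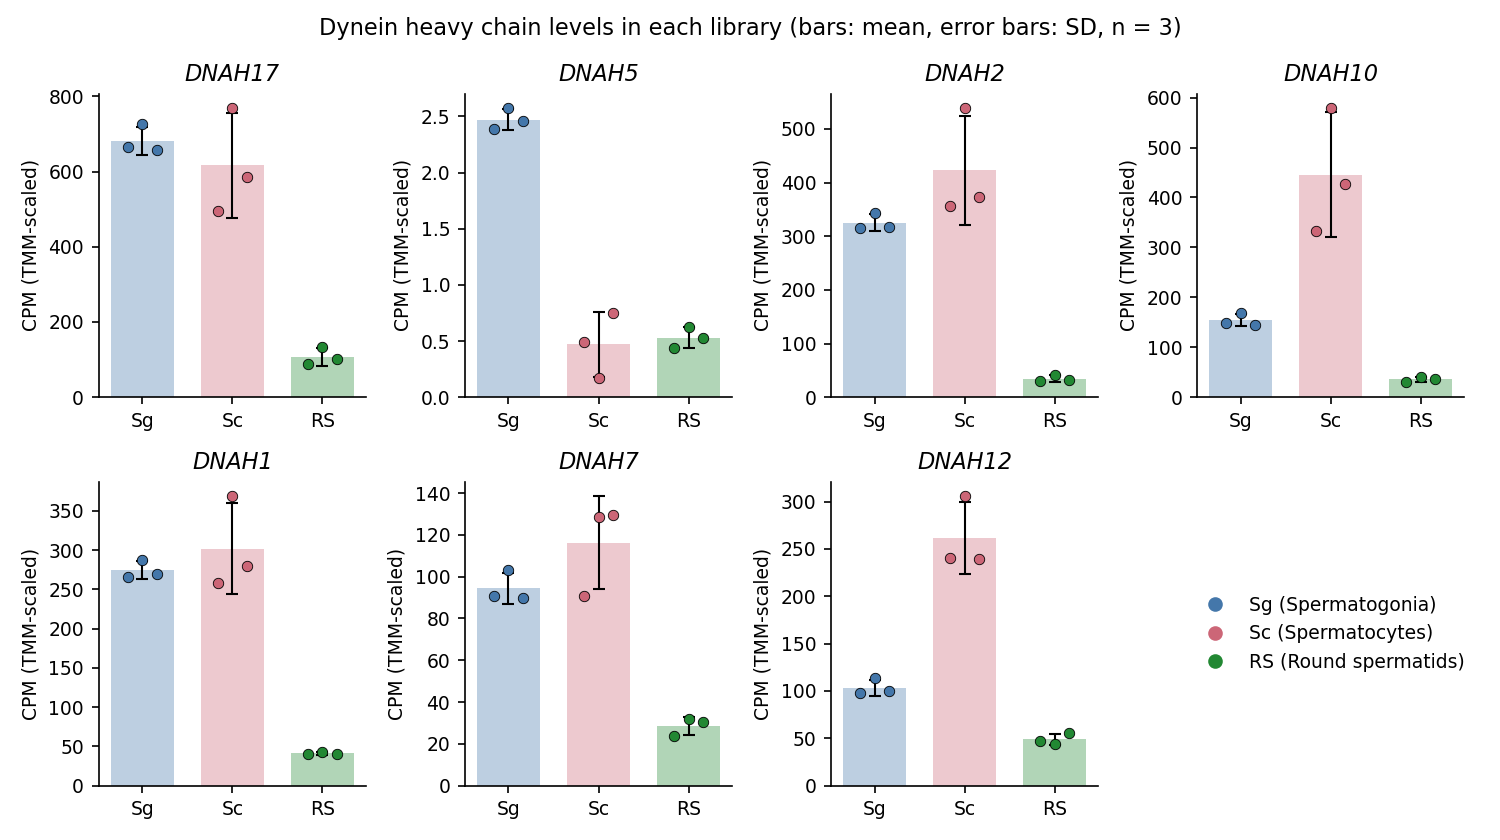
Level of each heavy chain in CPM (TMM-scaled, linear axes from 0, each with its own range) in spermatogonia (Sg), spermatocytes (Sc) and round spermatids (RS); points are libraries, bars are means and error bars are SD of 3 libraries. Round spermatids are lowest for every gene except DNAH5, which is below 1 CPM in both later stages, and spermatocytes stand above both other stages for DNAH10 and DNAH12.

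The outer arm of the sperm tail is built with DNAH17 as one of its heavy chains, the form used in sperm where motile cilia of other tissues use DNAH9 or DNAH11. Per length (TPM) it had the highest mean of the 7 at every stage, given with the order of the genes further on. Its level was 665, 726 and 658 CPM in spermatogonia 1, 2 and 3 (683 ± 37.3, SD, n = 3). In spermatocytes 2, 3 and 4 it was 496, 769 and 585 CPM (617 ± 139.6). The early stages overlapped, because spermatocytes 3 lay above every spermatogonia library and the other spermatocytes below. Round spermatids 1, 2 and 3 held 86.9, 135 and 102 CPM (108 ± 24.4), with no library near the earlier stages. DNAH17 fell 5.72-fold from spermatocytes to round spermatids (log2 fold change -2.52 ± 0.20 SE, edgeR adjusted p = 7.62e-07) and was 6.33-fold lower than in spermatogonia (-2.66 ± 0.20, adjusted p = 7.05e-07). Between spermatogonia and spermatocytes its change was -0.15 ± 0.19 (adjusted p = 0.497). That sign depended on the scaling: it was called lower with no scaling factors (-0.58, adjusted p = 0.0325) and called higher with offsets for transcript length (0.62, adjusted p = 0.00443).

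DNAH5 is the outer arm heavy chain of airway and other motile cilia, and is the gene most often named in primary ciliary dyskinesia. Per length it was the lowest of the 7 in every library, at most 0.474 TPM, where every other member had at least 2.49 TPM. Spermatogonia held 2.39, 2.58 and 2.46 CPM (2.47 ± 0.0961, n = 3), from 168, 182 and 171 counts. Spermatocytes held 0.490, 0.175 and 0.746 CPM (0.470 ± 0.286), from 25, 8 and 39 counts. Round spermatids held 0.440, 0.629 and 0.524 CPM (0.531 ± 0.0946), from 26, 38 and 31 counts. All spermatogonia libraries thus lay above all later ones, and the later stages overlapped. DNAH5 fell 5.18-fold into spermatocytes (-2.37 ± 0.37, edgeR adjusted p = 0.000199) and did not differ detectably between spermatocytes and round spermatids (0.16 ± 0.40, adjusted p = 0.727). It was 4.64-fold lower in round spermatids than in spermatogonia (-2.21 ± 0.36, adjusted p = 0.000196). On the log2(TPM + 1) scale the fall into spermatocytes was -0.45, and that of round spermatids against spermatogonia -0.44, with a pseudocount above the gene's level.

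DNAH2 and DNAH10 are the heavy chains of the inner arm with paired heads, whose partners are the intermediate chains DNAI3 and DNAI4. DNAH2 was at 316, 344 and 317 CPM in spermatogonia (326 ± 16.1, n = 3) and at 356, 539 and 373 in spermatocytes (423 ± 101). The groups did not overlap, but the change of 0.38 ± 0.18 missed the threshold (edgeR adjusted p = 0.0785). DNAH10 was at 149, 169 and 145 CPM in spermatogonia (154 ± 12.6) and at 332, 579 and 426 in spermatocytes (446 ± 125). It rose 2.89-fold (1.53 ± 0.19, adjusted p = 5.17e-05), and its lowest spermatocyte library lay far above its highest spermatogonia library.

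In round spermatids both genes were at their lowest. DNAH2 was at 29.6, 42.2 and 32.5 CPM (34.8 ± 6.58, n = 3), 12.2-fold below spermatocytes (-3.60 ± 0.20, edgeR adjusted p = 5.71e-08). DNAH10 was at 29.8, 40.1 and 36.3 CPM (35.4 ± 5.19), 12.6-fold below spermatocytes (-3.65 ± 0.21, adjusted p = 8.13e-08). These were the largest falls among the 7 members between those stages in this fit. Against spermatogonia DNAH2 was 9.36-fold lower (-3.23 ± 0.19, adjusted p = 1.66e-07) and DNAH10 4.35-fold lower (-2.12 ± 0.20, adjusted p = 3.41e-06). In each stage the highest library for both genes was the same one: spermatogonia 2, spermatocytes 3 and round spermatids 2.

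DNAH1, DNAH7 and DNAH12 are heavy chains of inner arms with a single head. DNAH1 is known for its part in human male infertility with malformed sperm tails. It was at 266, 287 and 269.8 CPM in spermatogonia (274 ± 11.5, n = 3) and at 258, 368 and 280.0 in spermatocytes (302 ± 58.5). These stages overlapped (0.14 ± 0.13, edgeR adjusted p = 0.364). In round spermatids DNAH1 held 39.9, 43.3 and 40.0 CPM (41.1 ± 1.94), in TMM-scaled CPM the narrowest relative spread of any member at that stage. In TPM it was at 4.49 ± 1.61 there, a wider relative spread than that of DNAH12 (10.7 ± 2.39). DNAH1 fell 7.35-fold from spermatocytes (-2.88 ± 0.14, adjusted p = 3.21e-08) and was 6.68-fold below spermatogonia (-2.74 ± 0.14, adjusted p = 7.04e-08).

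DNAH7 had the lowest mean TPM of these 3 in spermatogonia and spermatocytes. Spermatogonia held 90.6, 103 and 89.8 CPM (94.5 ± 7.43, n = 3) and spermatocytes 90.8, 128 and 129.6 (116 ± 22.1), with overlap (0.30 ± 0.16, edgeR adjusted p = 0.12). Round spermatids held 23.7, 32.0 and 30.3 CPM (28.7 ± 4.42). DNAH7 fell 4.06-fold from spermatocytes (-2.02 ± 0.17, adjusted p = 1.19e-06) and was 3.30-fold below spermatogonia (-1.72 ± 0.17, adjusted p = 4.59e-06).

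DNAH12 rose into spermatocytes with DNAH10. Spermatogonia held 97.8, 113 and 99.5 CPM (104 ± 8.45, n = 3), and spermatocytes 240.0, 305 and 239 (262 ± 37.9), each above the highest spermatogonia library. The rise was 2.53-fold (1.34 ± 0.14, edgeR adjusted p = 1.21e-05). Round spermatids held 46.9, 44.2 and 55.2 CPM (48.8 ± 5.76), 5.37-fold below spermatocytes (-2.42 ± 0.14, adjusted p = 8.5e-08) and 2.12-fold below spermatogonia (-1.09 ± 0.14, adjusted p = 3.01e-05). The fall against spermatogonia was the smallest of the 7 members in this fit. DNAH12 was also the 1 member whose highest round spermatid library was number 3 rather than number 2.

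Read over the 7 genes, spermatocytes lay wholly above spermatogonia for 3 (DNAH2, DNAH10 and DNAH12) and wholly below for DNAH5, against 31.9% and 48.1% of all tested genes. Round spermatids lay wholly below spermatocytes for 6, against 36.1% of tested genes, and wholly below spermatogonia for 7, against 43.5%. They lay wholly above for 0 members in either comparison, against 42.1% and 41.7% of tested genes. The median log2 change of the 7 was 0.30 in spermatocytes against spermatogonia, where that of all tested genes was -0.32. It was -2.52 in round spermatids against spermatocytes, beside 0.19 for all tested genes. It was -2.21 in round spermatids against spermatogonia, beside 0.0029 for all tested genes. The comparisons share libraries and are not independent of each other.

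The falls into round spermatids were called for the same genes under every alternative tried, while the first step depended on the scaling. There the median of all tested genes moved to -0.14 with RLE factors and to -0.74 with no factors, and the median of the 7 moved to 0.48 and -0.12. DNAH1, DNAH2 and DNAH7 turned negative with no factors and on the TPM scale. Without spermatocytes 2 the number of members called higher went from 2 to 4, as DNAH2 (adjusted p = 0.0469) and DNAH7 (adjusted p = 0.0223) passed in edgeR, and without round spermatids 2 DNAH2 passed (adjusted p = 0.0406). Of all genes called between these stages 40.0% were higher, which became 26.8% with no factors and 23.4% on the log2(TPM + 1) scale. For round spermatids against spermatocytes 54.0% were higher, and 65.7% with no factors. For round spermatids against spermatogonia 49.9% were higher, and 34.9% on the log2(TPM + 1) scale.

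**Figure D2:**
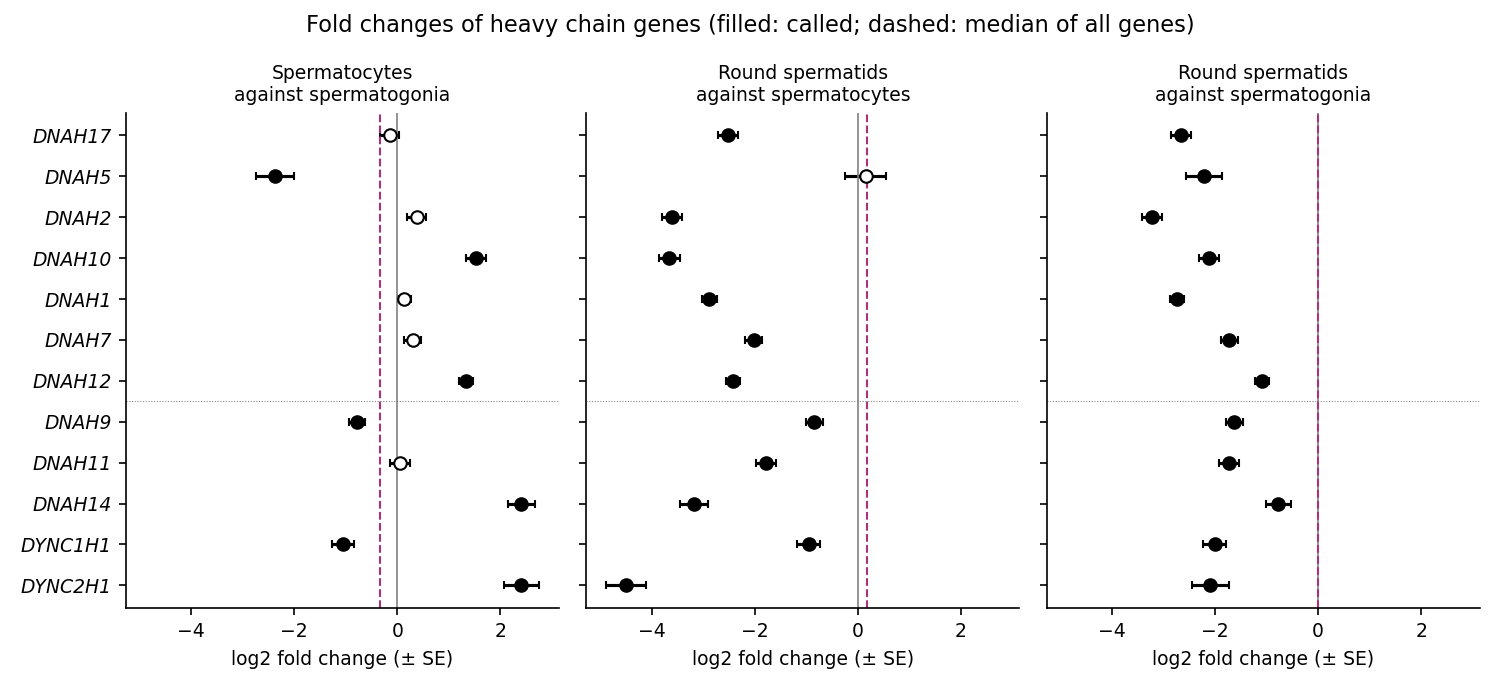
Log2 fold change with its standard error from the edgeR fit for the 7 members (above the dotted line) and 5 other dynein heavy chain genes (below it) in each comparison; filled points are called and the dashed line is the median of all tested genes. In both comparisons with round spermatids the points lie left of zero except DNAH5 at 0.16, while in spermatocytes against spermatogonia they spread from -2.37 for DNAH5 to 2.41 for DNAH14 and DYNC2H1.

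Because these transcripts differ in length, levels between genes were compared in TPM, the deposited values per length. By the ratio of deposited count to TPM DNAH12 was the shortest member, and its rank and share rest on that length. In spermatogonia the order was DNAH17 (98.0 ± 5.69 TPM, SD, n = 3), DNAH2 (48.8 ± 2.62), DNAH1 (44.1 ± 2.07), DNAH12 (34.4 ± 2.96), DNAH10 (25.3 ± 2.14), DNAH7 (22.8 ± 1.87) and DNAH5 (0.453 ± 0.0207). Only DNAH10 and DNAH7 overlapped as neighbours. In spermatocytes the first 5 places went to DNAH17 (61.6 ± 13.6 TPM), DNAH12 (60.3 ± 7.81), DNAH10 (51.0 ± 14.0), DNAH2 (43.96 ± 9.76) and DNAH1 (33.7 ± 6.21), each overlapping the next. DNAH7 (19.6 ± 4.42) and DNAH5 (0.0612 ± 0.0401) lay below them without overlap. In round spermatids DNAH17 (10.9 ± 5.86) and DNAH12 (10.7 ± 2.39) overlapped and lay above the rest. DNAH7 (4.74 ± 2.03), DNAH1 (4.49 ± 1.61), DNAH10 (4.01 ± 1.75) and DNAH2 (3.64 ± 1.84) overlapped each other, and DNAH5 was again lowest (0.0675 ± 0.0327).

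Round spermatids 2 was the highest round spermatid library for all 7 genes in TPM. DNAH17, for example, was at 6.996, 17.6 and 7.99 TPM in round spermatids 1, 2 and 3, a wider spread than in CPM, where that library carries the largest TMM factor (1.26). Deposited TPM columns do not sum to the full scale of that unit, and 3.19 to 11.8% is left out, most in round spermatids 1 and 3.

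Together the 7 genes made up 262, 294 and 265 TPM in spermatogonia and 216, 324 and 271 in spermatocytes (274 ± 17.2 and 270.2 ± 54.2, n = 3). In round spermatids they made up 27.8, 56.2 and 31.5 TPM (38.5 ± 15.5). As a share of all counts this was 0.173 to 0.191% in spermatogonia, 0.146 to 0.208% in spermatocytes and 0.0272 to 0.0425% in round spermatids. In TPM and as a share of counts the sum thus stayed in 1 range over the first step while its make-up shifted. Neither measure uses the TMM factors, which were 1.09 to 1.10 in spermatogonia and 0.774 to 0.853 in spermatocytes. In TMM-scaled CPM the sum was higher in spermatocytes.

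DNAH17 gave 35.8 ± 0.219% of the sum in spermatogonia, 22.7 ± 0.557% in spermatocytes and 27.3 ± 3.49% in round spermatids. DNAH12 gave 12.5 ± 0.293%, 22.6 ± 1.89% and 29.0 ± 4.53% at those stages. DNAH10 gave 9.25 ± 0.231%, 18.7 ± 1.54% and 10.3 ± 0.399%. The mean share of DNAH10 was thus at its largest in spermatocytes, and that of DNAH12 in round spermatids. For DNAH12 those 2 stages overlapped, with 23.8% in round spermatids 2 and 24.7% in spermatocytes 2. The share of DNAH12 exceeded that of DNAH17 in round spermatids 1 and 3 and in spermatocytes 2 (24.7% against 22.1%). DNAH2 went from 17.8 ± 0.171% in spermatogonia to 16.2 ± 0.858% and 9.21 ± 0.921%, and DNAH1 from 16.1 ± 0.315% to 12.5 ± 0.2996% and 11.8 ± 0.997%. DNAH7 gave 8.31 ± 0.158%, 7.27 ± 1.11% and 12.2 ± 0.631%, and DNAH5 at most 0.186% in any library.

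**Figure D3:**
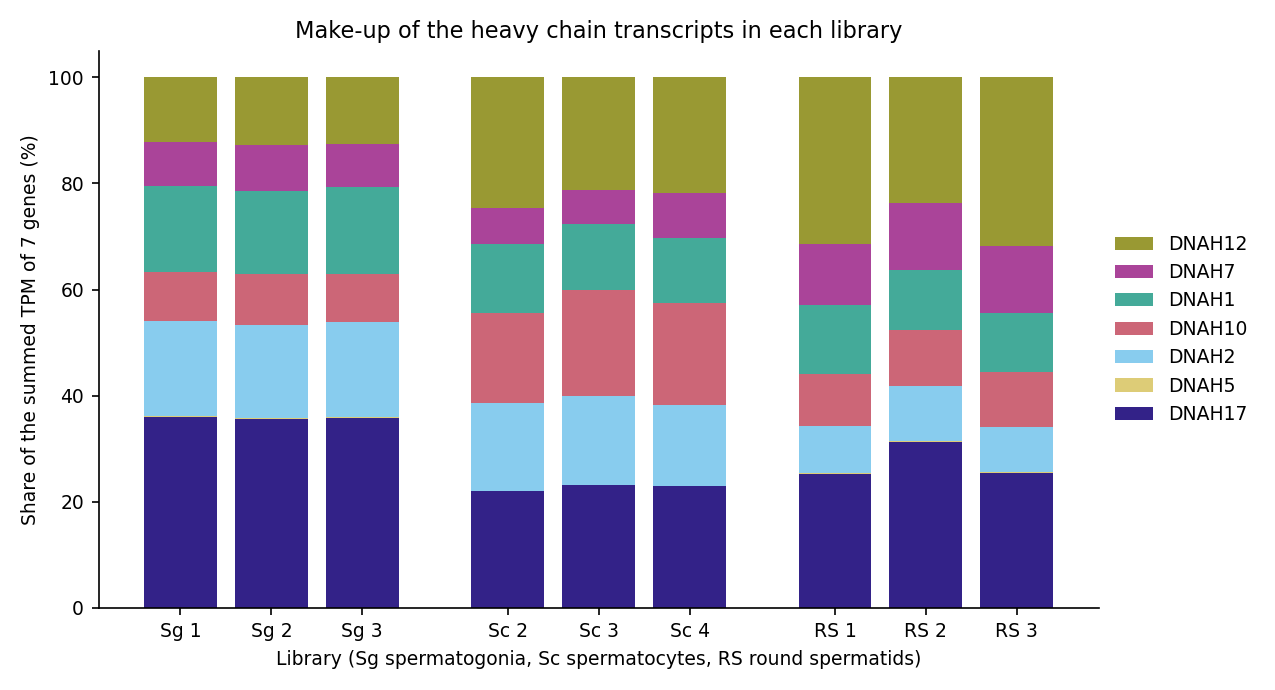
Share of each heavy chain in the summed TPM of the 7 genes, as a stacked bar per library (Sg spermatogonia, Sc spermatocytes, RS round spermatids, with library numbers). The band of DNAH17 narrows from 35.8% in spermatogonia to 22.7% in spermatocytes, DNAH10 is widest in spermatocytes at 18.7%, and DNAH12 reaches 29.0% in round spermatids.

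A ratio of genes within a library does not depend on how libraries are scaled. DNAH10 and DNAH2, which share an arm, stood at 0.519, 0.537 and 0.502 (TPM of DNAH10 over that of DNAH2) in spermatogonia. The ratio was 1.02, 1.18 and 1.25 in spermatocytes and 1.11, 1.04 and 1.23 in round spermatids. It was 2.21 times as high in spermatocytes as in spermatogonia (exact permutation test of log ratios, two-sided p = 0.1, the smallest that 3 against 3 can give). Between spermatocytes and round spermatids it differed by less than the spread of the libraries (0.978 times, exact permutation p = 0.8).

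The other 2 ratios had ranges that did not overlap between any stages. DNAH10 over DNAH17, an inner over an outer arm chain, was 0.252 to 0.266 in spermatogonia, 0.768 to 0.862 in spermatocytes and 0.341 to 0.408 in round spermatids. DNAH12 over DNAH1, both of arms with a single head, was 0.761 to 0.814, then 1.71 to 1.92, then 2.11 to 2.85. The exact permutation p was 0.1 in each of those 6 tests. Over the 9 ratio tests the adjusted p was 0.112 for 8 tests and 0.8 for the ninth, so none passed, and none could at this number of libraries. These 3 ratios were chosen after the values were seen.

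Of 6 other dynein heavy chain genes looked up, 5 were found, and DNHD1 is not analysed here. All 5 were called lower in round spermatids in both comparisons. DNAH9, an outer arm chain of motile cilia, averaged 22.3 ± 0.788, 12.9 ± 2.71 and 7.22 ± 0.512 CPM in spermatogonia, spermatocytes and round spermatids (n = 3 each). DNAH11, another ciliary outer arm chain, averaged 5.41 ± 0.0549, 5.5995 ± 1.55 and 1.63 ± 0.0679 CPM. Per length, DNAH9 and DNAH11 reached at most 3.60 and 1.06 TPM in any library, where the lowest value of DNAH17 was 6.996 TPM.

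DNAH14, a less studied member of the family, rose 5.31-fold into spermatocytes, from 97.3 ± 6.53 to 517 ± 141 CPM (2.41 ± 0.26, edgeR adjusted p = 1.62e-05). It then fell 9.06-fold to 57.0 ± 17.6 CPM (-3.18 ± 0.27, adjusted p = 1.15e-06). DYNC2H1, the motor that returns cargo from the tip of cilia, went from 15.5 ± 3.05 to 82.2 ± 37.3 and then 3.63 ± 0.849 CPM. DYNC1H1, the cytoplasmic dynein of cargo transport and the spindle, fell at each step instead, from 584 ± 25.3 to 281 ± 57.0 and 145 ± 48.7 CPM. Its fall from spermatocytes to round spermatids was 1.94-fold (-0.95 ± 0.22, adjusted p = 0.00235), smaller than that of the 6 called members, though this difference was not tested. That call of DYNC1H1, and that of DNAH9, was lost with no scaling factors (-0.45 and -0.38).

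Likeness of pattern was measured as the root mean square difference between centred log2(CPM + 1) profiles over the 9 libraries, among 7768 genes with a symbol and a mean of at least 10 CPM. Within the family DNAH1 and DNAH17 were each other's nearest (0.19). DNAH2 was nearest to DNAH1 (0.32), DNAH7 to DNAH17 (0.42), DNAH12 to DNAH7 (0.46) and DNAH10 to DNAH2 (0.54). On this scale DNAH5 was the farthest member from each of the others, 0.90 from DNAH7 and up to 1.59 from DNAH10.

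Every member had closer genes outside the family. The nearest to DNAH12 was DNAI3 (0.067), an intermediate chain of the inner arm with paired heads, at 160 ± 2.08, 390.4 ± 46.2 and 76.7 ± 5.35 CPM. The nearest to DNAH1 were TTLL6 (0.079), an enzyme that adds glutamates to tubulin, and DNAAF9 (0.095). IFT172, a part of the intraflagellar transport train, was nearest to DNAH17 (0.12), followed by CELSR3 (0.12). TDRD12 (0.12) and CRACD (0.16) were nearest to DNAH2, and FAM53C (0.10) and HERC2 (0.11) to DNAH7. RAPGEF6 (0.15) and BUB1B (0.17), a spindle checkpoint kinase, were nearest to DNAH10. MTF2 (0.096) came second for DNAH12, and ZMYND15 (0.096) and ZKSCAN2 (0.12) were nearest to DNAH5. At the level of DNAH5 the added 1 CPM compresses its profile on this scale, so that likeness is not one of fold changes: ZMYND15 went from 328 to 129 CPM into spermatocytes and DNAH5 from 2.47 to 0.470. These are the smallest values of a search and are a description only.

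The other parts of the arms were taken from lists, given here by counts of genes called, to be read against the shares of all tested genes. Into round spermatids from spermatocytes 36.4% of all tested genes fell and 42.7% rose. In spermatocytes against spermatogonia 29.3% were higher and 44% lower. Of 10 intermediate chains, which tie heavy chains to their cargo or doublet, 8 fell and 1 rose from spermatocytes to round spermatids (median -1.47). In spermatocytes against spermatogonia 5 were higher and 3 lower (median 0.38). DNAI4 and DNAI3, the partners of DNAH2 and DNAH10, rose by 1.83 and 1.29 into spermatocytes and then fell by 2.36 and 2.35 (log2, edgeR, adjusted p at most 4.65e-06). DNAI2, of the outer arm, fell at both steps (-1.03 and -1.48), from 400.4 ± 2.60 to 196 ± 23.9 and 70.2 ± 12.4 CPM. DYNC2I2, of the ciliary transport dynein, fell by 1.30 into spermatocytes.

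Of 9 light chains tested, 7 fell and 2 rose into round spermatids (median -0.62). With no scaling factors 4 fell (median -0.17), as DYNLL1, DYNLRB2 and DYNLT2 lost their calls. Of the same 9, 5 were higher and 2 lower in spermatocytes against spermatogonia (median 0.56). NME8 was at 260.3 ± 3.15, 788 ± 123 and 149 ± 13.0 CPM over the stages, and DNAL1, which sits on the outer arm motor, at 37.0 ± 0.359, 126 ± 9.83 and 31.5 ± 3.14. DYNLL2 and DYNLT3, light chains shared with cytoplasmic dynein, went the other way into round spermatids, by 2.04 and 1.35. DNAL4 fell by 0.43 into spermatocytes, a call lost with RLE factors, and by 1.70 against spermatogonia in round spermatids.

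Assembly factors load heavy chains into arms in the cytoplasm. Of 19 tested, 16 fell and 2 rose into round spermatids (median -1.58), and 8 were higher and 8 lower in spermatocytes against spermatogonia (median 0.17). DNAAF9 fell most, from 90.4 ± 15.4 to 11.7 ± 1.99 CPM (-2.95 ± 0.16, edgeR adjusted p = 6.35e-08). CFAP300 rose from 58.5 ± 1.94 to 280.3 ± 20.2 CPM in spermatocytes and returned to 71.8 ± 3.96, and DNAAF4 rose by 1.35 and fell by 1.63. DNAAF5 fell by 1.97 into spermatocytes. PIH1D1, which also serves other complexes, fell by 2.39 into spermatocytes and rose by 0.92 into round spermatids, as DNAAF6 did by 0.65; neither rise was called on the log2(TPM + 1) scale.

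The list of the axonemal ruler, the nexin-dynein complex and inner arm anchoring had 17 genes. From spermatocytes to round spermatids 14 fell and 1 rose (median -1.61), and 9 were higher and 5 lower in spermatocytes against spermatogonia (median 0.50). CCDC39 and CCDC40 form the ruler that spaces inner arms along the doublet. CCDC39 went from 40.6 ± 0.538 to 212 ± 18.4 and back to 41.1 ± 9.10 CPM, and CCDC40 from 112 ± 0.947 to 212 ± 24.6 and then 27.1 ± 4.38. CFAP44 rose by 1.70 into spermatocytes, and CFAP43, its partner, fell by 2.79 into round spermatids at a level of 10.4 ± 3.08 CPM before. CFAP100 and IQCA1, both at or below 20 CPM, fell by 1.92 and 1.13 into spermatocytes, and IQCA1 rose by 1.16 into round spermatids.

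Of 3 outer arm docking genes found of 6, ODAD2 rose into spermatocytes and fell into round spermatids (88.9 ± 1.28, 146 ± 15.1 and 34.7 ± 2.83 CPM), and CLXN rose into round spermatids, from 1.68 ± 0.723 to 10.5 ± 0.760 CPM. The rise of ODAD2 into spermatocytes was not called on the log2(TPM + 1) scale. Of 8 transcription regulators of cilium genes tested, 4 fell and 2 rose into round spermatids (median -0.42), and 1 was higher and 4 lower in spermatocytes against spermatogonia (median -0.61). FOXJ1, a master regulator of motile cilia, was at 136 ± 1.87, 100.04 ± 14.3 and 194.3 ± 9.45 CPM, so it rose into round spermatids (0.96 ± 0.12, edgeR adjusted p = 2.03e-05) where 6 heavy chains fell. RFX2, a regulator of spermatid and cilium genes, fell at both steps (1086 ± 14.1, 531 ± 48.9 and 275.9 ± 50.1 CPM). RFX7 rose by 2.53 and fell by 2.87, and RFX3 fell by 1.62 into spermatocytes.

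Against spermatogonia, round spermatids had 9 of 10 intermediate chains, 16 of 19 assembly factors and 15 of 17 ruler and anchoring genes lower, with 0, 1 and 0 higher. Of all tested genes 39.7% were lower and 39.5% higher in that comparison. Of 9 light chains 2 were higher and 3 lower, and 0 and 6 on the log2(TPM + 1) scale. The medians of these lists were -0.80, -1.32, -0.96 and 0.022. The light chain median turned to -0.59 on the log2(TPM + 1) scale. Of 3 outer arm docking genes 1 was higher and 1 lower (median 0.22, and -0.46 on that scale). In spermatocytes against spermatogonia that scale also turned the medians of the intermediate chains (-0.11), assembly factors (-0.36) and ruler genes (-0.023). Their counts higher and lower there were 4 and 5, 6 and 8, and 5 and 7, and those of the light chains 3 and 4, so lower calls outnumbered higher ones. With no scaling factors the first 2 of these turned as well (-0.040 and -0.25), and the median of the transcription regulators from spermatocytes to round spermatids went to 0.031.

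**Figure D4:**
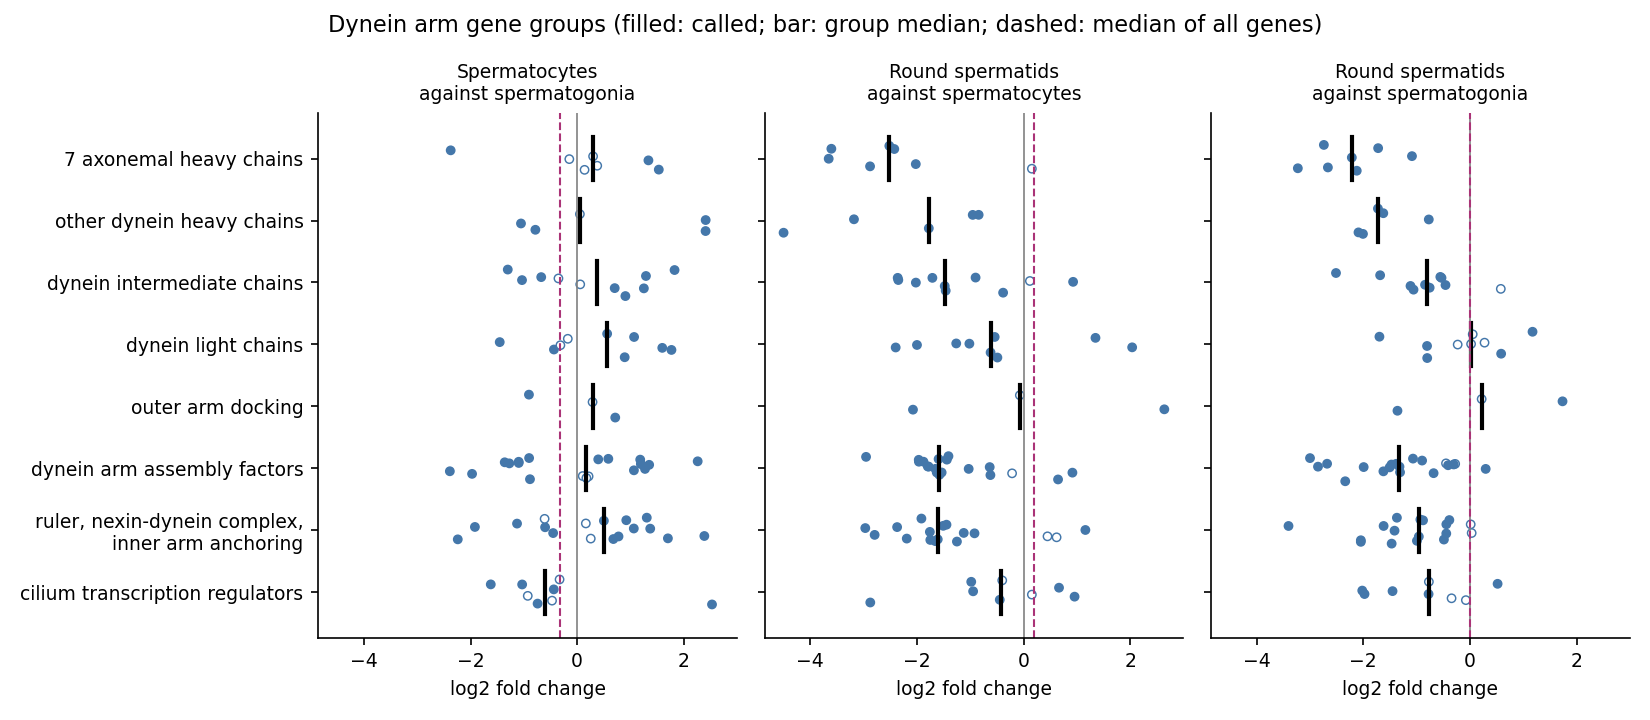
Log2 fold change of every gene in 8 lists of dynein arm genes, for the 3 comparisons; filled points are called, black bars are list medians and the dashed line is the median of all tested genes. From spermatocytes to round spermatids the medians of the heavy chains (-2.52), assembly factors (-1.58), ruler genes (-1.61) and intermediate chains (-1.47) lie left of the dashed line. Those of light chains (-0.62), transcription regulators (-0.42) and outer arm docking genes (-0.069) lie closer to it.

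Heavy chain transcripts are among the longest that a cell makes. By the ratio of deposited count to TPM, 97.64 to 99.81% of genes were shorter than each member, except DNAH12 with 90.78%. Relative to the median gene, DNAH12 had a length of 2.27 and the rest of the members 3.13 to 5.25. Of the other heavy chains, 75.59% of genes were shorter than DNAH14 and only 35.65% shorter than DYNC2H1. Whether these gene models are complete was not tested, and TPM levels, ranks and shares rest on the lengths used. Long genes differed between stages as a class. Among the 505 tested genes in the longest 3% the median change was -0.76 in spermatocytes against spermatogonia, beside -0.24 for the shorter 50% of genes. It was 0.31 in round spermatids against spermatocytes, beside 0.08 for the shorter 50%, and 32.7% of those long genes fell there. DNAH12 is not in that class. In round spermatids against spermatogonia the median was -0.40, beside -0.08, and 47.7% fell.

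With offsets for length in the edgeR fit, chosen after the data were seen, the members' calls into round spermatids were 6 lower and 7 lower in the 2 comparisons, as without them. In spermatocytes against spermatogonia the offsets raised the number of members called higher from 2 to 6, with DNAH5 still lower. DNAH10 then had a change of 2.24 in place of 1.53.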

How the data were processed

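The authors deposited estimated counts in 1 table and TPM in another, with 15 library columns each, of which 6 were matched to no sample and not used. The unused columns were headed SSEA4 or were further round spermatid columns. Per the labels' protocols, paired reads came from a directional kit. The submitters' processing notes name Sscrofa11.1 and bcl2fastq. The quantifier, annotation and use of strand were not given in the sources used here, so overlapping and antisense genes are uncertain. Each deposited count equals TPM times a gene and a library factor (largest log deviation 3.64e-14 over 16193 genes), so both tables hold the same measurement.

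Estimated counts were rounded, filtered with filterByExpr (minimum count 10, 16802 genes kept), scaled by TMM and fitted over all 9 libraries with edgeR 4.0.16 in R 4.3.3 (glmQLFTest, Benjamini-Hochberg adjustment, threshold 0.05), after tests on simulated data. The standard error is the fold change's size over the square root of F. Symbols were found for 14749 identifiers. The alternatives used RLE factors, no factors, other filters, DESeq2 1.42.0, limma 3.58.1 on log2(TPM + 1) or log2(TPM + 0.1), a replicate block, only the stages compared, summed spermatogonia, each library left out, and length offsets.

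The members and gene lists were chosen with earlier results of these data known. Named were all members and other heavy chains found, and from each list and comparison up to 2 called genes with the largest rise and 2 with the largest fall at 5 CPM or more, not all of which are printed. The markers of Sertoli cells, endothelium, leukocytes and efferent ducts summed to at most 70.9, 16.8, 2.62 and 10.1 CPM in the earlier stages, and to 228 to 314, 166 to 189.6, 23.4 to 30.4 and 12.4 to 21.7 in round spermatids.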

Additional observations from a re-analysis of the deposited data

How the results depend on the processing

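Calls of the 6 members into round spermatids from spermatocytes and of all 7 from spermatogonia held in 20 of 20 alternatives, as did those of DNAH5, DNAH10 and DNAH12 in spermatocytes against spermatogonia (adjusted p at most 0.00655, 0.012 and 0.00356). In that last comparison the members called higher (2) became 4 with RLE factors, with no filter and with DESeq2, 5 with only the stages compared, 6 with length offsets, and 2 to 4 on leaving out single libraries. Those called lower (1) became 2 with no scaling factors. All genes called higher (4930) became 2604 and 2633 on the log2(TPM + 1) and log2(TPM + 0.1) scales and 3229 with spermatogonia summed.

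Signs turned for uncalled changes in the same comparison. DNAH17 (-0.15) became 0.041 with RLE factors and DESeq2, 0.080 with no filter, 0.052 with only the stages compared and 0.62 with length offsets. DNAH1, DNAH2 and DNAH7 became -0.29, -0.053 and -0.12 with no factors, -0.39, -0.17 and -0.23 on the log2(TPM + 1) scale, and -0.40, -0.17 and -0.24 on the log2(TPM + 0.1) scale, and DNAH1 ran from -0.026 without spermatocytes 3 to 0.24 without spermatocytes 2. From spermatocytes to round spermatids DNAH5 (0.16) became -0.034 with no filter and -0.13 with length offsets, ran from -0.23 without spermatocytes 3 to 0.64 without spermatocytes 4, and was called in 0 of 20 alternatives (adjusted p 0.114 to 0.985).

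Same-numbered libraries did not deviate together (correlations -0.15 to 0.047, against -0.17 to 0.16 for other pairs between stages). Such deviations may be technical, so this check cannot tell whether same-numbered libraries share an animal. With the replicate block the members called stayed at 2 higher and 1 lower, 6 lower and 7 lower, and all genes called at 4638 higher and 7277 lower, 7067 and 5949, and 6625 and 6753. DNAH5 then had -2.98 in spermatocytes against spermatogonia. Its counts, as few as 8 in a library, make it the least precisely measured member.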
